A study of Mus musculus with 4 samples.

Results

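Matrix metalloproteinases (Mmp genes), the related ADAM and ADAMTS proteases with the ADAMTS-like proteins, and the TIMP inhibitors were examined in mouse dendritic cells held in normoxia or hypoxia with media or poly I:C. Members were all genes of the deposited table whose symbol begins with Mmp, Adam or Timp and a digit, or with Adamts. This gave 83 of 22170 genes with a symbol, and each was read by the probe set with the highest mean over the 4 arrays. An intensity of 16 was reached by 18 of the 83 genes on 1 array or more, while 31% of all genes did so. The dendritic cells came from bone marrow of C57Bl/6 mice cultured with GM-CSF, and each culture spent 16 h in 1 of 4 conditions. The controls were kept in normoxia with media, and the other groups in normoxia with poly I:C (10 µg/ml), in hypoxia with media, or in hypoxia with the same dose of poly I:C. Hypoxia is labelled 0.5%, with no gas named, and all 4 groups share the strain and the GM-CSF culture. Poly I:C mimics the double-stranded RNA of viruses. Affymetrix Mouse Gene ST 1.0 arrays measured total RNA, 1 array per condition, so no value below has a replicate error or a test, and the number of arrays limits every value.

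Proteases of these families hold a zinc ion in the active site and are made as inactive proforms. MMPs cut collagens, elastin and other matrix proteins and are blocked by TIMPs. ADAMs sit in the cell membrane and release the outer parts of other membrane proteins, among them TNF, whereas ADAMTS proteases are secreted and act on matrix. Macrophages and dendritic cells use such enzymes to move through tissue and to shed cytokines and receptors.

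Array medians of all probe sets lay between 3.90 and 4.09, far below the intensity of 16. The 6 hypoxia-induced genes listed for a check, such as Vegfa and Slc2a1, had a median log2 difference of 3.74 for hypoxia in media, and with poly I:C in normoxia all 6 were at least 2-fold higher as well (median 1.52). The 6 interferon-induced genes, such as Isg15 and Rsad2, had a median of 5.22 for poly I:C in normoxia. In hypoxia in media 3 of the 6 were at least 2-fold lower (median -1.12), against 5.37% of all genes that reached 16. These 3, Ifit1, Ifit2 and Mx1, read only 16.1 to 20.3 in normoxia with media. In hypoxia with media they read 5.22 to 6.04. Isg15 and Rsad2 were below 16 on both media arrays. Of 11 dendritic cell markers 7 reached 16, among them Itgax, which encodes CD11c, at 268 to 615, and Zbtb46, Flt3, Batf3 and Cd209a stayed below it. All 12 macrophage markers in the table reached it. No marker of fibroblasts, lymphocytes or mast cells did. The sums of the 12 macrophage markers were 6654 (normoxia, media), 5940 (normoxia, poly I:C), 6507 (hypoxia, media) and 6352 (hypoxia, poly I:C). Lyz2 alone read 2856 to 3543, so the sums say little about the other markers. With poly I:C, 2 were at least 2-fold higher and 1 lower in normoxia, and 3 and 2 in hypoxia (shares of all genes are given below). Fcgr1 (3.90) and Mrc1 (-3.51) differed most in normoxia. For hypoxia 2 were lower and 0 higher, both in media and with poly I:C. RNA came from whole cultures, so fewer cells of a type and less RNA per cell cannot be told apart. Below, a difference is the log2 ratio of 2 arrays, and a gene is called higher or lower when they differ at least 2-fold.

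The 10 Mmp genes of mouse chromosome 9 lie next to each other with no other protein-coding gene between them, in the RefSeq order Mmp13, Mmp12, Mmp1b, Mmp3, Mmp1a, Mmp10, Mmp8, Mmp27, Mmp20 and Mmp7. Mmp13, Mmp12 and Mmp8 reached 16 on all 4 arrays. The other 7 read 1.68 to 4.90 in every condition, which is the level of the array medians. The sequences below are the 250 bases before the RefSeq start of 5 of these neighbours (GRCm38.p6, all on the plus strand). They are shown because genes that reached 16 and genes that did not carry the same motif. Capitals mark TGAGTCA on either strand, the AP-1 motif through which many MMP genes are known to be activated. The windows are chr9:7272264-7272513, chr9:7347124-7347373, chr9:7445572-7445821, chr9:7502092-7502341 and chr9:7558179-7558428.
Mmp13: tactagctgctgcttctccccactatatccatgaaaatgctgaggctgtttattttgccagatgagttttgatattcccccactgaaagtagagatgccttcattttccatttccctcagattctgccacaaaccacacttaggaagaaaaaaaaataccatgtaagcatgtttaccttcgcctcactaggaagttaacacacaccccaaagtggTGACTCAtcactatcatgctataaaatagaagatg
Mmp12: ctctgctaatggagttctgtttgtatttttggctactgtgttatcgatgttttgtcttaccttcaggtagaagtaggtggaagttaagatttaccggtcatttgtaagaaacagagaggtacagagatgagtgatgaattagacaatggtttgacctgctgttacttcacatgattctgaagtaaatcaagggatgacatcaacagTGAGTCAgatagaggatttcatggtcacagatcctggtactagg
Mmp3: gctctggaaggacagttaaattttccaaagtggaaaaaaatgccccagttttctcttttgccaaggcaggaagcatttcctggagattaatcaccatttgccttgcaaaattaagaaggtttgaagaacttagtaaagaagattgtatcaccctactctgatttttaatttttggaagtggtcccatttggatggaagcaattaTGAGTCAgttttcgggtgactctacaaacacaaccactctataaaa
Mmp10: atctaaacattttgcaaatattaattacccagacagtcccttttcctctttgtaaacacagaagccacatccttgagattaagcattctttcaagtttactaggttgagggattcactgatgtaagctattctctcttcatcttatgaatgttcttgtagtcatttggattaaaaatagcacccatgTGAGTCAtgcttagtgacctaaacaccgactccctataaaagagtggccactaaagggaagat
Mmp8: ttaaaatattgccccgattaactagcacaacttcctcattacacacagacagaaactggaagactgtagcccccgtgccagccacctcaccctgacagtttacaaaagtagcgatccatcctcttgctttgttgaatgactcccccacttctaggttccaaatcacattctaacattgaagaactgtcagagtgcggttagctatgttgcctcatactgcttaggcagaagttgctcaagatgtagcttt

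Of the 10 neighbours 7 held TGAGTCA in such a window, between bases -93 and -29 counted from the start. These genes have 12 windows, 7 of which hold the motif, and over all 32851 windows of this length in the RefSeq table the share was 4.46%. Of those 7 genes only Mmp12 and Mmp13 reached 16, and Mmp1a, Mmp1b, Mmp3, Mmp7 and Mmp10 did not. In Mmp12 and in Mmp7 it stands in 1 of 2 RefSeq windows each. The Mmp8 window holds no such match, which says only that these letters are not in it. Outside the chromosome 9 neighbours, 2 other genes of the families held it, Adam19 and Adam29. A window was found for only 50 of the 83 genes, the 10 neighbours included. Mmp2, Mmp9, Mmp19, Adam9 and Adamts10 are among those without one, so they were not searched.

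**Figure D1:**
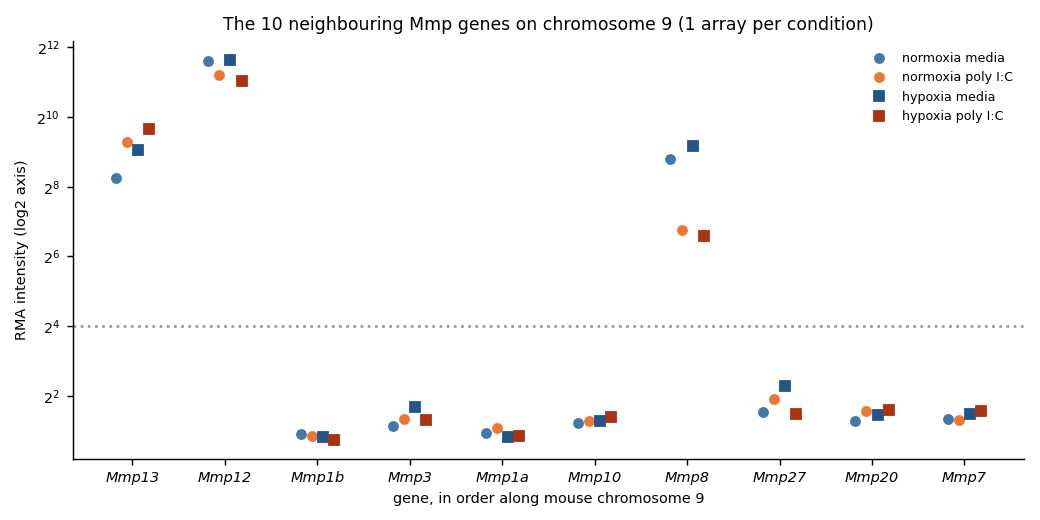
RMA intensity (log2 axis) of the 10 neighbouring Mmp genes in their order along chromosome 9, with circles for normoxia, squares for hypoxia and orange or red for poly I:C. Mmp13, Mmp12 and Mmp8 lie above the dotted line at 16 on every array, and the other 7 lie at 1.68 to 4.90.

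Of the collagenases, which cut fibrillar collagen, Mmp8 and Mmp13 reached 16, and they went opposite ways with poly I:C. Mmp8, the collagenase best known from neutrophils (probe set 10583100), read 441 in normoxia with media and 108 with poly I:C. In hypoxia it read 580.1 with media and 95.3 with poly I:C. Both poly I:C arrays were far below both media arrays, by 4.09-fold in normoxia (-2.03) and 6.09-fold in hypoxia (-2.61). The difference between hypoxia and normoxia was 0.39 in media and -0.18 with poly I:C. Mmp13, the main interstitial collagenase of mice (probe set 10583044), read 303 in normoxia with media, 619 in normoxia with poly I:C, 533 in hypoxia with media and 802 in hypoxia with poly I:C. Each treatment alone left it above the untreated array and the combination was highest. The difference for poly I:C was 1.03 in normoxia and 0.59 in hypoxia, and that for hypoxia was 0.81 in media and 0.37 with poly I:C.

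None of the 13 neutrophil and precursor markers in the table, which include Ly6g, S100a8, S100a9, Mpo and Ltf, reached 16 on any array. Their highest single value was 13.7. Their summed intensity was 61.8 in normoxia with media, 65.5 in normoxia with poly I:C, 51.1 in hypoxia with media and 55.7 in hypoxia with poly I:C. With every marker below 16 these sums are near background, and the part of such cells in the Mmp8 values was not tested.

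The gelatinases Mmp2 and Mmp9, which cut denatured collagen and basement membrane collagen, went different ways with poly I:C, and both were lower in hypoxia in media. Mmp9 (probe set 10478633) read 31.9 in normoxia with media and passed 16 there only. Its other readings were 5.36 in normoxia with poly I:C, 12.6 in hypoxia with media and 5.63 in hypoxia with poly I:C. The poly I:C array was lower both in normoxia (-2.57) and in hypoxia (-1.16). For hypoxia the difference was -1.34 in media but at 0.07 for hypoxia with poly I:C. Since it was admitted through the array where it was high, a lower value elsewhere was favoured. With all values below 16 raised to 16, its differences against the normoxic media array were -0.99 and the one for poly I:C in hypoxia was 0.00. Of 5 measured platelet and megakaryocyte markers 3 reached 16, and the sum of all 5 was 194, 45.7, 115 and 57.9 in the same order of arrays. Ppbp alone gave 110 of the 194. Ppbp (-5.14) and Pf4 (-1.71) were lower with poly I:C in normoxia, where Mmp9 was lower too, and Vwf was at -0.62. In hypoxia in media Ppbp (-2.58) and Pf4 (-1.08) were lower, as Mmp9 was, but Vwf was higher (1.06). The part of such cells in the Mmp9 values was not tested.

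Mmp2 (probe set 10573924) read 36.9 in normoxia with media, 48.6 in normoxia with poly I:C, 9.71 in hypoxia with media and 31.2 in hypoxia with poly I:C. The hypoxic media array stood apart, 3.80-fold below normoxia (-1.93), and poly I:C in hypoxia was 3.21-fold above it (1.68). In normoxia the difference for poly I:C was 0.40, and hypoxia with poly I:C gave -0.64. Raising the 9.71 to 16 leaves -1.20 for hypoxia in media and 0.96 for poly I:C in hypoxia. Active Mmp2 is known to be made at the cell surface by Mmp14 with the help of Timp2, and both partners were read here. Mmp14, a membrane-type MMP (probe set 10415052), read 375 in normoxia with media, 447 in normoxia with poly I:C, 247 in hypoxia with media and 325 in hypoxia with poly I:C. Its order over the 4 arrays was that of Mmp2, with hypoxic media lowest, but no difference reached 2-fold, the largest being -0.60 for hypoxia in media.

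Mmp25, a membrane-type MMP held by a lipid anchor and known from leukocytes (probe set 10448278), was highest in normoxia with poly I:C. It read 66.4 there, 20.6 in normoxia with media, 15.4 in hypoxia with media and 25.7 in hypoxia with poly I:C. The poly I:C array was 3.22-fold higher in normoxia (1.69) and 1.67-fold higher in hypoxia (0.74). With poly I:C, hypoxia was 2.58-fold lower (-1.37), and in media it was at -0.42.

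Mmp12, the elastin-cutting metalloelastase of macrophages (probe set 10583056), read 3146 in normoxia with media, 2378 in normoxia with poly I:C, 3202 in hypoxia with media and 2095 in hypoxia with poly I:C. The poly I:C arrays were lower in both oxygen conditions, by -0.40 and -0.61, short of 2-fold. In normoxia this became -0.11 after centring on reference genes and -0.13 with cyclic loess scaling. The media arrays differed by 0.03.

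Mmp19, a secreted MMP that acts on basement membrane proteins (probe set 10367400), had the widest span of the 18 genes, 7.96-fold. It read 175 in normoxia with media, 89.2 in normoxia with poly I:C, 315 in hypoxia with media and 39.5 in hypoxia with poly I:C. Hypoxia thus stood above normoxia in media (0.84) and below it with poly I:C (-1.18). The difference for poly I:C was -0.97 in normoxia and -2.99 in hypoxia. The difference of differences, which is the hypoxia difference with poly I:C minus that in media, was -2.02. Over all 6871 genes that reached 16 this quantity had a robust SD of 0.44, which holds any real response to the combination as well as noise. A difference of differences of at least 2-fold was seen in 3 of the 18 genes, Mmp19 below 0 and Mmp2 (1.28) and Mmp9 (1.41) above it. With values below 16 raised to 16, Mmp2 (0.56) and Mmp9 (0.99) fell short, and Mmp25 came to the 2-fold line below 0 beside Mmp19, which left 0 above and 2 below. Of all genes 4.45% lay as far above and 2.43% as far below, 6.88% together.

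**Figure D2:**
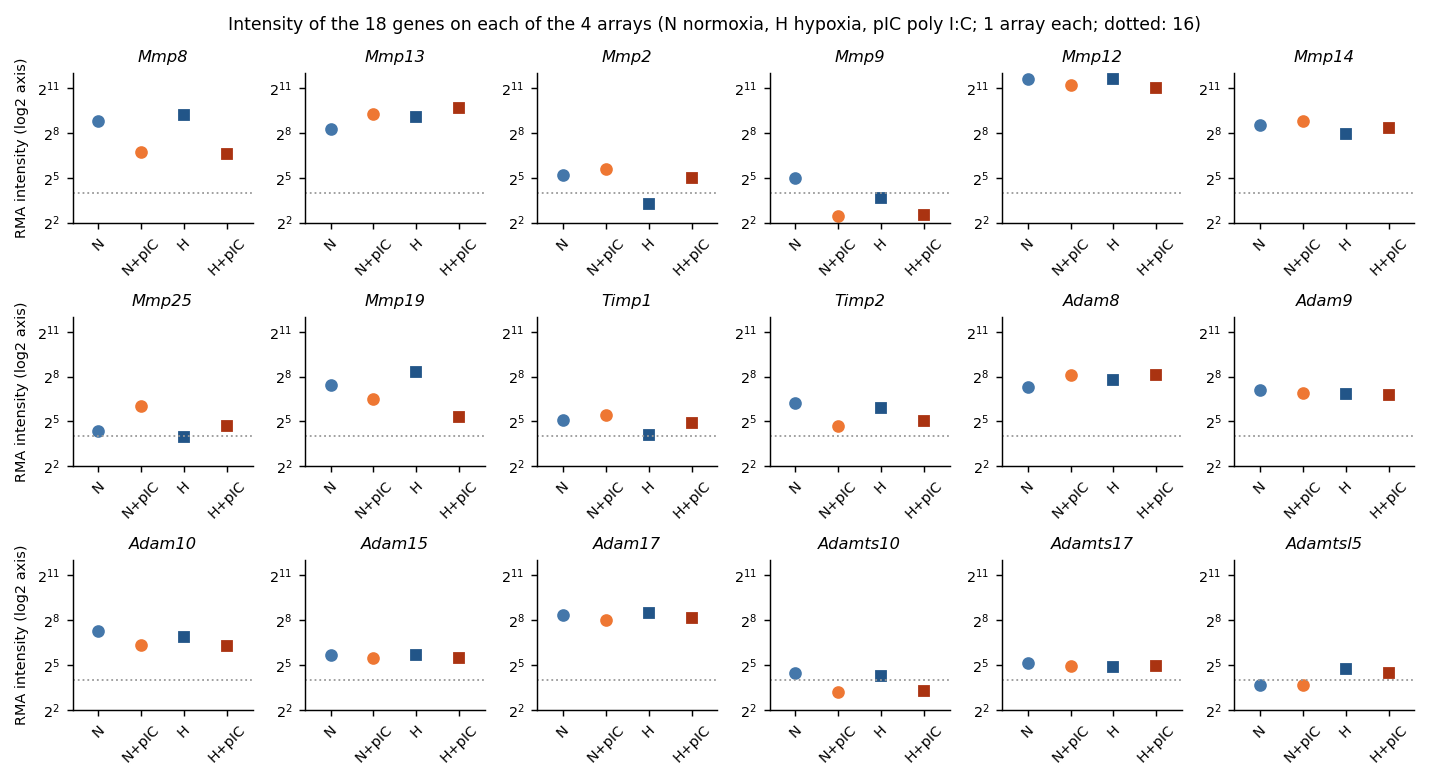
RMA intensity (log2 axis) of the 18 genes on each of the 4 arrays, 1 point per array, with the dotted line at 16. Mmp8 and Timp2 are lower on both poly I:C arrays, Mmp2 is lowest in hypoxia with media at 9.71, and Mmp19 spans 39.5 to 315.

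The inhibitor genes Timp1 and Timp2 reached 16, and Timp3 and Timp4 stayed below 3.75. Timp2, which also takes part in Mmp2 activation (probe set 10393559), read 76.7 in normoxia with media, 25.4 in normoxia with poly I:C, 60.0 in hypoxia with media and 32.5 in hypoxia with poly I:C. Both poly I:C arrays were below both media arrays, 3.02-fold in normoxia (-1.59) and 1.84-fold in hypoxia (-0.88). Timp1, an inducible inhibitor of most secreted MMPs (probe set 10598976), read 34.1 in normoxia with media, 43.9 in normoxia with poly I:C, 16.9 in hypoxia with media and 29.2 in hypoxia with poly I:C. This is the same order of arrays as for Mmp2 and Mmp14. The hypoxia difference was -1.01 in media and -0.59 with poly I:C, and that for poly I:C was 0.37 in normoxia and 0.78 in hypoxia. The value of -1.01 lay at the 2-fold line and became -0.88 after centring on reference genes and -0.96 with cyclic loess scaling.

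Of 32 Adam genes 5 reached 16, and none of these 5 was 2-fold apart in any of the 4 comparisons on the deposited scale, although Adam8 passed 2-fold under other scalings. Adam17, the sheddase that releases TNF (probe set 10399605), read 331 and 258 in normoxia and 352 and 279 in hypoxia, with media first and poly I:C second. Its difference for poly I:C was -0.36 in normoxia and -0.34 in hypoxia, but -0.06 and -0.19 after centring on reference genes and -0.12 and -0.17 with cyclic loess. Adam10, which cuts Notch receptors and many other surface proteins (probe set 10586844), read 151 and 78.8 in normoxia and 118 and 78.6 in hypoxia, again with media first. That is -0.94 and -0.58 for poly I:C. Adam8, an ADAM of leukocytes (probe set 10568873), was lowest on the untreated array at 158, against 272 in normoxia with poly I:C, 223 in hypoxia with media and 276 in hypoxia with poly I:C. Its difference for poly I:C in normoxia was 0.78, but 1.08 after centring on reference genes and 1.03 with cyclic loess, so its place below 2-fold depended on the scaling. Adam9 lay between 109 and 135 and Adam15 between 43.6 and 51.5 on all 4 arrays, and both encode membrane-bound ADAMs.

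Of 19 Adamts genes 2 reached 16, and of 5 Adamts-like genes 1 did. Adamts10, a secreted protease linked in humans to fibrillin microfibrils (probe set 10443949), read 22.2 in normoxia with media and 19.5 in hypoxia with media. With poly I:C it read 9.10 and 9.71, below 16, with a difference of -1.29 in normoxia and one at the 2-fold line in hypoxia. Centring on reference genes brought them to -0.99 and -0.86, and raising values below 16 to 16 to -0.47 and -0.28. Since Adamts10 was admitted through the media arrays only, a lower value with poly I:C was favoured. Adamts17 lay between 29.0 and 34.6 in its brightest probe set, which is 1 of 5. Another read about 16 and 3 stayed below 3.22, so the gene was read in part only. With means over probe sets Adamts17 no longer reached 16, and 17 genes remained. Adamtsl5, which encodes a secreted ADAMTS-like protein without the protease domain (probe set 10370798), was the only one of the 18 genes at least 2-fold higher in hypoxia in media. It read 12.8 and 12.6 in normoxia and 26.3 and 21.8 in hypoxia, with media first and poly I:C second. The hypoxia difference was 1.04 in media and 0.79 with poly I:C. Since Adamtsl5 was admitted through the hypoxia arrays only, a higher value there was favoured. With values below 16 raised to 16 its differences were 0.72 and 0.45, and 0 of the 18 genes were then 2-fold higher in hypoxia in media.

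The promoters of Adamtsl5, highest in hypoxia, and Timp1, lowest in hypoxia with media, are shown because both hold the core letters of the hypoxia-inducible factor motif. They are the 250 bases before the RefSeq start, at chr10:80348449-80348698 on the minus strand and chrX:20869916-20870165 on the plus strand (GRCm38.p6), and capitals mark ACGTG or GCGTG on either strand.
Adamtsl5: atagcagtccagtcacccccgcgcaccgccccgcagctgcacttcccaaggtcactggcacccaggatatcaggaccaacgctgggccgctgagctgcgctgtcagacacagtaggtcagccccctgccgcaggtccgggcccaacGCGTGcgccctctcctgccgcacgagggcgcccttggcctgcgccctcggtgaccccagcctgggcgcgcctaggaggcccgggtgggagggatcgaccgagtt
Timp1: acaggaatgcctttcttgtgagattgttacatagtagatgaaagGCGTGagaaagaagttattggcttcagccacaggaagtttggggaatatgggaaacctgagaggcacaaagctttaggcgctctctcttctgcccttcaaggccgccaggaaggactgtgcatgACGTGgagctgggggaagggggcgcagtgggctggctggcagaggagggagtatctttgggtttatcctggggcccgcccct

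These short letters are common. Of all 32851 windows 38.6% held them, and of the 14 windows found for 13 of the 18 genes 9 did. Among them were those of Adam17 (0.09 in media, 0.11 with poly I:C) and Timp2 (-0.35 and 0.36), not called for hypoxia. That of Mmp25, which was lower in hypoxia with poly I:C (-1.37), held them too. Mmp8, Mmp12, Mmp13 and Adam8 are the genes with a window and no match. No window was found for Mmp2, Mmp9, Mmp19, Adam9 and Adamts10. Several genes called for hypoxia were thus not examined, Mmp2 (-1.93) and Mmp9 (-1.34) in media and Mmp19 (-1.18) with poly I:C.

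Read as a family, the 18 genes were 2-fold apart more often for poly I:C than for hypoxia, and so were all genes. In normoxia 6 of 18 were 2-fold apart with poly I:C, with Mmp13 and Mmp25 higher and Adamts10, Mmp8, Mmp9 and Timp2 lower. Over all 6871 genes that reached 16, 8.44% were higher and 6.81% lower, 15.3% together. After centring on reference genes the split of all genes became 12.7% higher and 3.37% lower, and that of the 18 genes 3 higher and 3 lower. In hypoxia 5 of 18 were apart, Mmp2 higher and Adamts10, Mmp19, Mmp8 and Mmp9 lower, against 9.9% and 8.08% of all genes, 18% together. Hypoxia in media gave 4 of 18, with Adamtsl5 higher and Mmp2, Mmp9 and Timp1 lower, against 3.7% and 5.37%, 9.07% together. Hypoxia with poly I:C gave 2 of 18, Mmp19 and Mmp25, both lower, against 3.22% of all genes lower and 6.21% in either direction. In several calls 1 of the arrays was below 16. Both arrays were at 16 or above in 4 of the 6, 2 of the 5, 1 of the 4 and 2 of the 2 calls, in the same order.

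The medians of the 18 genes were -0.21 for poly I:C in normoxia, -0.24 for poly I:C in hypoxia, -0.22 for hypoxia in media and 0.01 for hypoxia with poly I:C. All genes gave -0.09, -0.11, -0.07 and -0.06. The 11 genes that reached 64 gave -0.36, -0.34, 0.03 and -0.12 in the same order, against -0.03, -0.06, -0.10 and -0.06 for all genes that did, so the sign of both hypoxia medians depended on the floor. Centring on reference genes shifted the median of all genes by 0.31 for poly I:C in normoxia, and the median of the 18 genes there became 0.09, so its sign depended on the scaling. The poly I:C differences in normoxia and in hypoxia, which share no array, had the same sign in 17 of 18 genes and in 77.7% of all genes. For hypoxia in media and with poly I:C the same sign was seen in 11 of 18 genes and in 67.3% of all genes.

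**Figure D3:**
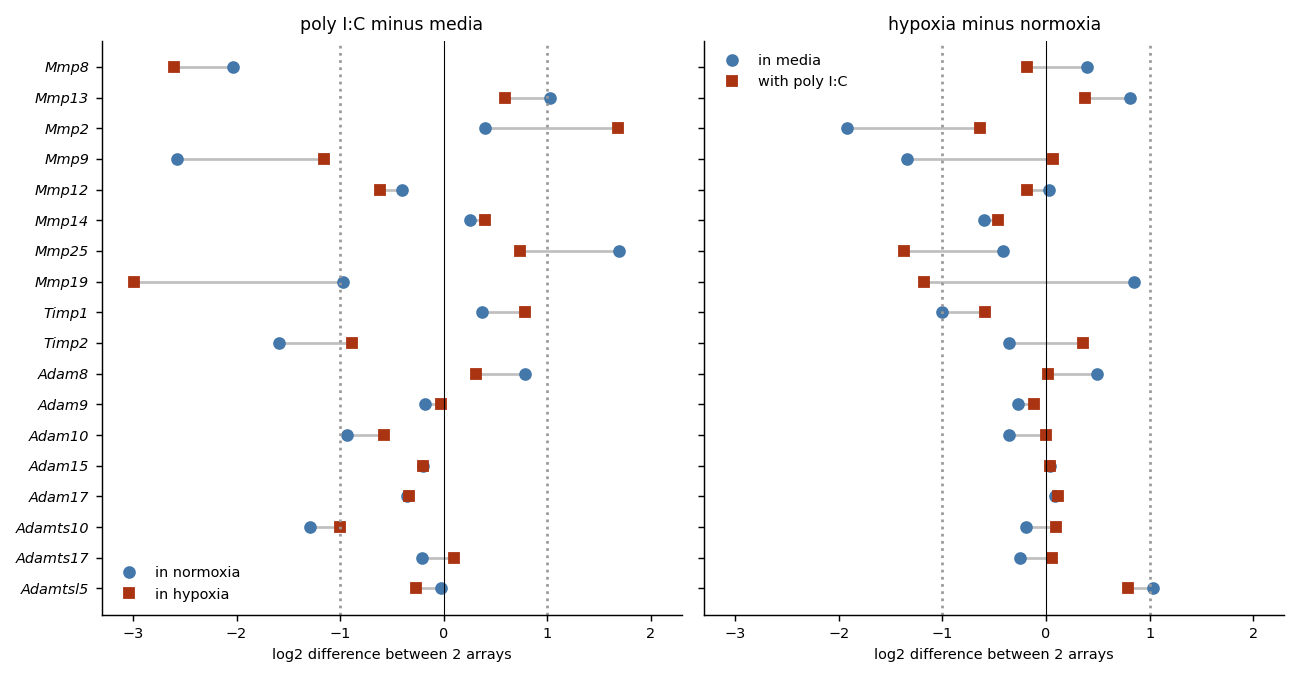
Log2 differences of the 18 genes for poly I:C (left) and for hypoxia (right), with circles and squares for the 2 settings of the other factor and dotted lines at 2-fold. Mmp8 and Mmp9 lie left of the 2-fold line in both settings of poly I:C, and Mmp19 lies on opposite sides of 0 for hypoxia, at 0.84 and -1.18.

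**Figure D4:**
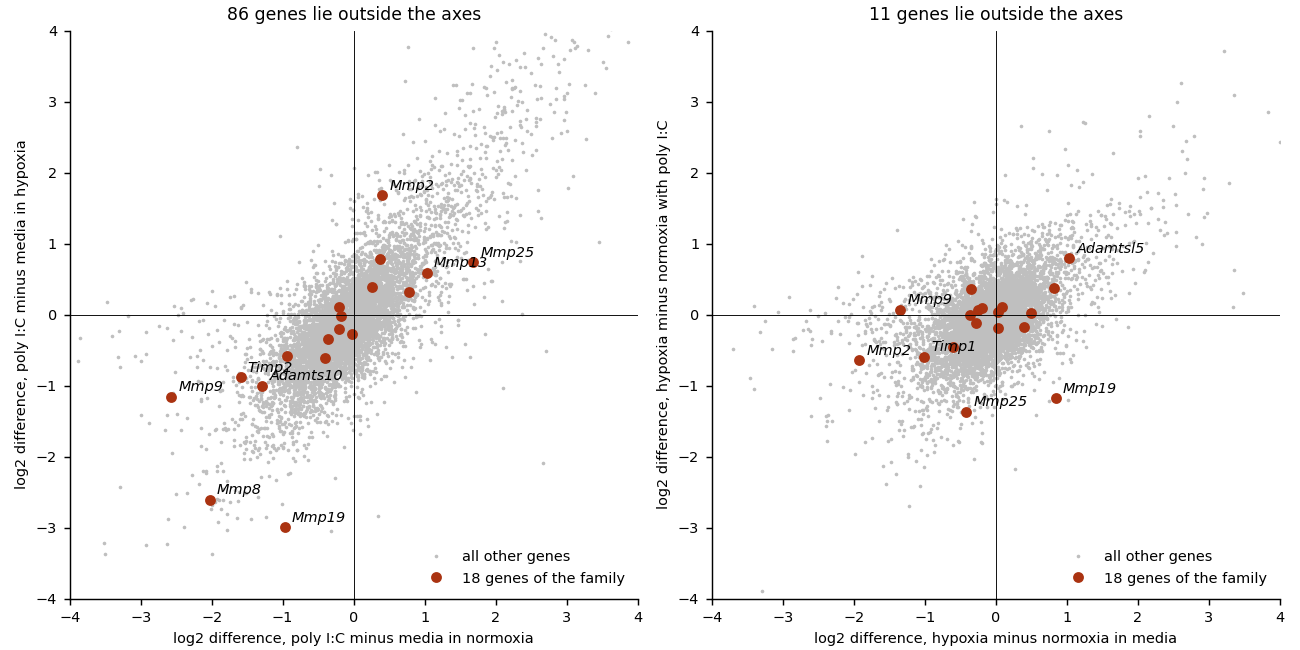
Log2 differences of the 6871 genes that reached 16 (grey) and of the 18 genes (red), poly I:C in normoxia against poly I:C in hypoxia on the left and hypoxia in media against hypoxia with poly I:C on the right. Each panel compares differences that share no array, and Mmp19 lies at -0.97 and -2.99 on the left and at 0.84 and -1.18 on the right.

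Near the line of 16, Adamts10 and Adamtsl5 came just inside it with highest values of 22.2 and 26.3, and Adam19 and Adamts9 just outside it with 13.7 and 12.7. Adam23 and Adam33 followed at up to 10.7 and 10.1. Of the 65 genes below the line 60 never reached 8. They include the stromelysin genes Mmp3, Mmp10 and Mmp11, the membrane-type Mmp15, Mmp16, Mmp17 and Mmp24, the sperm ADAM genes Adam2 and Adam3, and the aggrecan-cutting Adamts4 and Adamts5.

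Genes that work with these proteases were taken from 4 lists of related genes. Their counts stand against the same shares of all genes: 8.44% higher and 6.81% lower for poly I:C in normoxia, 9.9% higher and 8.08% lower for it in hypoxia, 3.7% and 5.37% for hypoxia in media, and 3% and 3.22% for hypoxia with poly I:C. In the plasminogen system, whose protease plasmin can activate proMMPs, 5 of 9 genes reached 16. Serpinb2, which encodes an inhibitor of plasminogen activators, read 9.13 in normoxia with media, 78.0 in normoxia with poly I:C, 15.8 in hypoxia with media and 61.2 in hypoxia with poly I:C. It was higher with poly I:C under both oxygen levels (3.09 in normoxia, 1.95 in hypoxia). Since Serpinb2 was admitted through the poly I:C arrays only, a higher value there was favoured. Anxa2, which encodes a surface receptor of plasminogen, was higher in hypoxia in media (1.06) and with poly I:C (1.09). These were the only calls among the 5 genes, and their medians were 0.52 and 0.15 for poly I:C (normoxia first) and 0.48 and -0.30 for hypoxia (media first), the order also used for the lists that follow.

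Among other regulators 6 of 21 genes reached 16. Rhbdf2, which encodes the iRhom protein that brings Adam17 to the surface, was higher with poly I:C under both oxygen levels (1.22 in normoxia, 1.12 in hypoxia). Bsg, which encodes the MMP inducer basigin, was higher in hypoxia in media (2.03) and with poly I:C (1.66). Furin, whose product removes the propeptide of ADAMs and membrane-type MMPs, was higher in hypoxia with poly I:C (1.27). Tspan14, a tetraspanin gene of Adam10 transport, was lower with poly I:C in hypoxia (-1.03). The medians of this list were 0.09, 0.37, 0.23 and 0.03.

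Of 27 genes for surface proteins known to be shed by ADAMs 19 reached 16. With poly I:C in normoxia 7 were higher and none lower, led by Hbegf (2.22), Tnf (1.85), F11r (1.60) and Vcam1 (1.37, from 6.24 to 16.1). Hbegf read 12.9 and 10.3 in media, below 16, and 60.4 and 21.0 with poly I:C, normoxia first. Hbegf was thus admitted through the poly I:C arrays only, and Vcam1 through normoxia with poly I:C only. Higher values there were therefore favoured. In hypoxia 6 were higher with poly I:C and Mertk was lower (-1.43). In hypoxia in media Il1r2 was higher (2.68, from 4.34 to 27.9) and Axl (-1.62), Vcam1 (-1.07) and, at the 2-fold line, Tnf were lower. Both Vcam1 readings in media, 6.24 and 2.97, were below 16. So were both in hypoxia, 2.97 and 8.61, although Vcam1 counts among the 6 genes higher with poly I:C there. Il1r2 counts among the 7 in normoxia, where both its readings, 4.34 and 10.1, were below 16. Since Il1r2 was admitted through the hypoxia arrays only, at 27.9 and 55.0, a higher value there was favoured. With poly I:C, hypoxia gave Il1r2 (2.45) and F11r (1.26) higher and Hbegf (-1.53) and Mertk (-1.18) lower. The medians were 0.33, 0.57, 0.04 and 0.04. Of 20 matrix protein genes 5 reached 16, and Fn1, which encodes fibronectin, was lower with poly I:C under both oxygen levels (-4.45 in normoxia, -4.18 in hypoxia), as was Thbs1 in hypoxia (-1.01). Vcan, the versican gene (1.96), and the laminin gene Lamc1 (1.23, from 6.95 to 16.3) were higher in hypoxia in media. Lamc1 passed 16 on that array only, and narrowly, so a higher value there was favoured. The medians of this list were 0.56, -0.95, 0.61 and 0.35. No gene of the 9 other proteases of the same superfamily, such as Adamdec1 and Bmp1, reached 16.

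**Figure D5:**
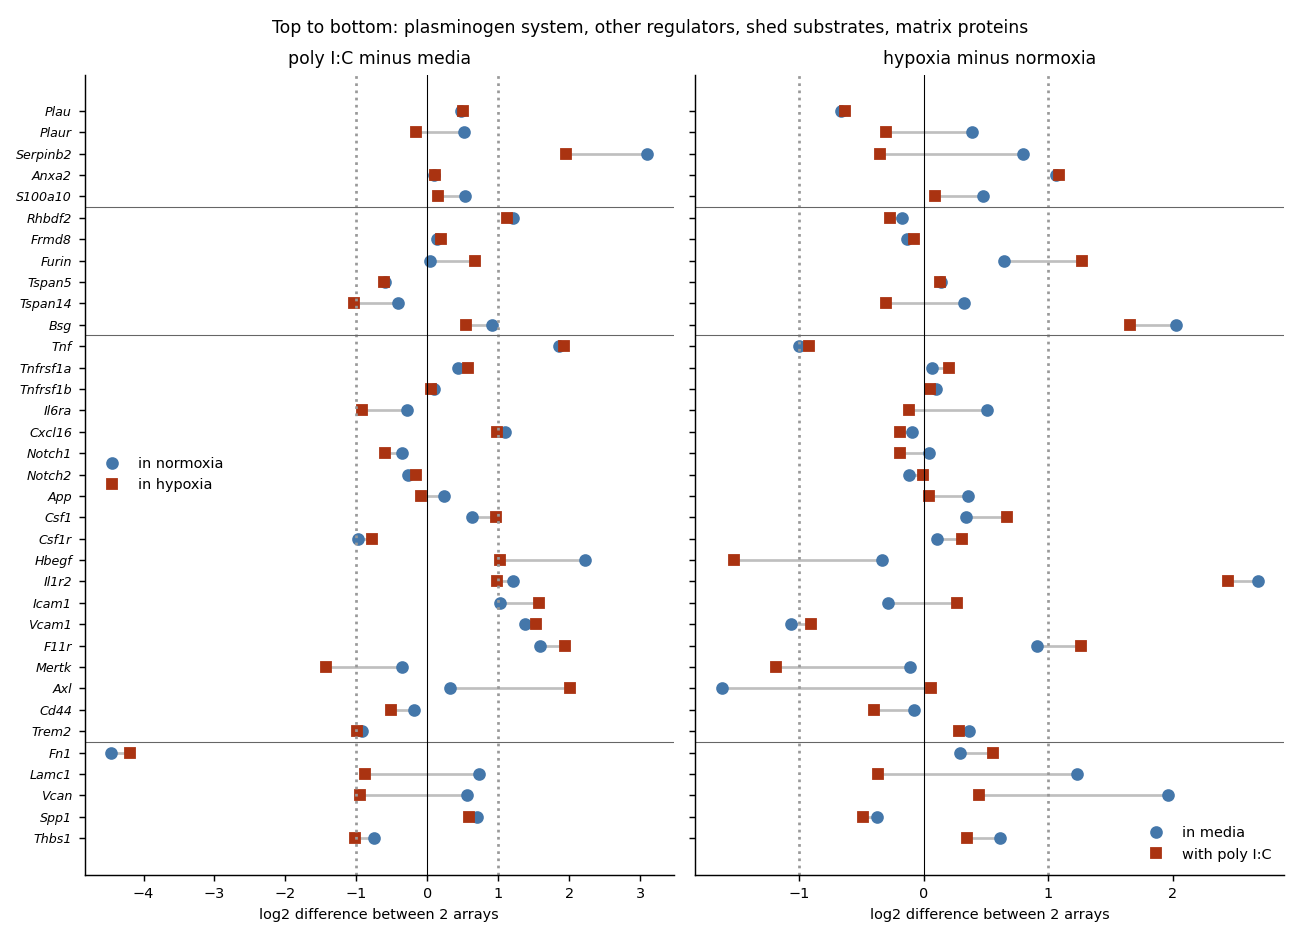
Log2 differences of the genes of the 4 related lists that reached 16, for poly I:C (left) and hypoxia (right), with dotted lines at 2-fold and lists separated by horizontal lines. Fn1 lies furthest left for poly I:C at -4.45 and -4.18. Il1r2 lies furthest right for hypoxia at 2.68 and 2.45, with both normoxia readings below 16.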

How the data were processed

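Per the labels and the series' design text, total RNA of 4 dendritic cell cultures, 1 per condition, was hybridised to 1 Affymetrix Mouse Gene ST 1.0 array each. Per the submitters' processing notes the authors normalized the arrays by RMA in Affymetrix Expression Console, and the deposited values are linear intensities of 28998 probe sets. RMA makes the intensity distributions alike, so a shift common to most genes would not be seen. A second deposited table held the same intensities, with 0 differing values. The 4 columns of Z-scores were not used. Tool versions and annotation build: not given in the sources used here.

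Probe sets with no symbol (3911) or several (355) were left out, and the brightest of a gene's probe sets was used (4 of the 83 genes had several). A gene entered when its highest intensity reached 16, a limit that favours differences in genes high in 1 condition only. Differences are log2 ratios, called at 2-fold. Members with an intensity of 16 may all be named; of other lists, up to 4 leading genes and all calls where there are 5 or fewer. A listed gene of the plasminogen system is not reported here. The members and lists were chosen with earlier results of these data known. Of the 83 genes 80 matched RefSeq (GRCm38.p6) by accession; chromosome 9 neighbours and promoter sequences were looked up by symbol. Steps were tested on simulated data. Python 3.11.15, pandas 2.3.3 and limma 3.58.1 (cyclic loess, 3 iterations) were used. Alternatives were floors of 32 and 64, values below 16 raised to 16, centring on 9 reference genes, cyclic loess, means over probe sets and a 3-fold threshold. With 1 array per condition no p-value is given.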

Additional observations from a re-analysis of the deposited data

Results flagged for a closer look

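For 8 differences the 2 settings of the other factor went in opposite directions, and with 1 array per condition this was not tested. The values are differences of differences. Mmp19 had the largest at -2.02, from 0.84 for hypoxia in media to -1.18 with poly I:C. Mmp9 was at 1.41 (from -1.34 to 0.07), Timp2 at 0.71 (from -0.35 to 0.36) and Mmp8 at -0.58 (from 0.39 to -0.18). The 0.07 of Mmp9 lay between readings of 5.36 and 5.63, both below 16. With values below 16 raised to 16 that difference was 0.00, so its sign has little meaning. The same holds for Adamts10 with poly I:C, at 9.10 and 9.71. Adamts10 (0.28), Adamts17 (0.31) and Mmp12 (-0.21) turned sign for hypoxia within the robust SD of 0.44 over all genes. Adamts17 also did for poly I:C, again at 0.31, since both describe the same 4 arrays.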

How the results depend on the processing

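For hypoxia in media the 4 genes called became 2 at a floor of 32, 0 at 64, 2 with values below 16 raised to 16 and 1 at 3-fold. For poly I:C in hypoxia the 5 became 3, 2, 2 and 3 in the same order. For hypoxia with poly I:C the 2 became 0 at 3-fold. Genes reaching the floor numbered 17 with means over probe sets, where Adamts17 was lost, and 11 at a floor of 64. At 64, differences of differences of 2-fold or more numbered 1 in place of 3. The counts for poly I:C in normoxia stayed between 4 and 7 under all alternatives, against 6. Of the single values of the 18 genes, 9 fell below 2-fold with dim values raised, 3 after centring on reference genes and 2 with cyclic loess, and none changed sign among those called. No paired analysis was possible because each condition has 1 array.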

Other observations

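Adam4 stayed below 16, and its values are given here after they were seen. It read 6.51 and 2.33 in normoxia and 6.03 and 2.22 in hypoxia, with media first and poly I:C second, so both poly I:C arrays were below both media arrays at intensities near the array medians. Adam23 read 7.92 and 10.7 in normoxia and 4.51 and 4.92 in hypoxia, in the same order.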
